A study of Mus musculus with 10 samples.

Results

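The genes described here were 10 genes of fat cells, measured in whole adrenal glands of Crem knock-out and wild-type mice. They fell into 5 brown adipocyte genes (Ucp1, Cidea, Elovl3, Cox7a1 and Ppargc1a) and 5 genes of fat cells in general (Pparg, Lpl, Adipoq, Fabp4 and Plin1), out of 19661 genes represented by a probe of their own. The members were selected on their levels on these same 10 arrays, in which several of them had been seen to vary strongly from gland to gland. Their levels and their spread are therefore given as a description. Each gene was read from its probe with the highest mean level, and all 10 were measured.

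Total RNA of whole adrenal glands was hybridised to Affymetrix whole-transcript arrays, one array per mouse. The KO group held 5 mice that carry a disruption of Crem (Crem-/-), the gene of a cAMP-responsive transcription factor, and the WT group held 5 mice with intact Crem. All mice came from a mixed background (129Pas x C57Bl/J) and were untreated, 8 weeks old, and killed at 0 h of circadian time. The disruption is carried in the whole animal, so fat as well as adrenal cells of the KO mice lack intact Crem. By the labels, arrays were run in 4 batches. Batch 1 held 2 KO arrays and 1 WT array, batch 2 held 2 KO arrays, batch 3 held 1 KO array and 3 WT arrays, and batch 4 held 1 WT array. Levels are given as log2 RMA values, so that a difference of 1 is a doubling, and every difference is KO minus WT.

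Brown adipocytes burn fatty acids to make heat. Noradrenaline from sympathetic nerves acts on their beta-adrenergic receptors, cAMP rises, stored triglyceride is broken down, and the uncoupling protein of the inner mitochondrial membrane lets protons return without making ATP. White adipocytes store triglyceride in one large droplet and secrete hormones such as leptin and adiponectin. Both kinds share the machinery for taking up, making and storing fat, and both depend on the nuclear receptor encoded by Pparg. In mice the fat around the kidney and the adrenal gland contains brown adipocytes. The adrenal gland itself consists of a steroid-producing cortex and a catecholamine-producing medulla, and its cortical cells also hold lipid droplets.

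Upstream sequences are shown for 3 genes, because cAMP-responsive factors such as CREM bind a short DNA motif and the members include known cAMP-induced genes. RefSeq (GRCm38.p6) gave windows for 6 of the 10 members, 8 windows in all, and the 250 bases before the annotated start were searched on both strands. The motifs were TGACG, the core of the cAMP-responsive element, which lies inside the full element TGACGTCA, and AGGTCA, the core of nuclear receptor sites. Ucp1 (chr8:83290098-83290347, + strand) is shown as the member with the largest range, Ppargc1a (chr5:51567726-51567975, - strand) as the member with the smallest, and Adipoq (chr16:23146286-23146535, + strand) as a general fat gene. Capitals mark TGACG or AGGTCA, read on either strand, so that TGACG on the opposite strand appears as CGTCA.
Ucp1: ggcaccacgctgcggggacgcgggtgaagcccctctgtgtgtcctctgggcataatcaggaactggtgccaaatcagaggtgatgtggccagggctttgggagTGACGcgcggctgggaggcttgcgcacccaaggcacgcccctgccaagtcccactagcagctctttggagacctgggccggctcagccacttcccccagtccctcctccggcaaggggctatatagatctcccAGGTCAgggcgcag
Ppargc1a: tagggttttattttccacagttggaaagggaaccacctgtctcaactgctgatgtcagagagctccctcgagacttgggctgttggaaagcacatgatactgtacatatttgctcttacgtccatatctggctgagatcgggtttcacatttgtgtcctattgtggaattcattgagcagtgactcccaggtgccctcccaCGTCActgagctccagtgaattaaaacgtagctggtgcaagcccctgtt
Adipoq: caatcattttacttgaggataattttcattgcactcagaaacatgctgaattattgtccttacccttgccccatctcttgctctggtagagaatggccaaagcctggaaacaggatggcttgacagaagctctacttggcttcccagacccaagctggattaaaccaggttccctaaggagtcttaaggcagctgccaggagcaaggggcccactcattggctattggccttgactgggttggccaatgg
TGACG began at position -147 in Ucp1 and, on the opposite strand, at position -49 in Ppargc1a, counted from the annotated start. These were 2 of the 8 windows, beside 17.8% of all 32851 mouse windows of this length. The full element was in none of the 8 windows and in 1.55% of all windows. AGGTCA was found in 3 of the 8 windows, at -14 in Ucp1 and in 2 of the 3 windows of Pparg, beside 14.0% of all windows. A match describes letters of the sequence and is not evidence of binding.

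A few arrays stood apart across all genes. KO 2, KO 5 and WT 3 lay together on the first principal component, which held 53.8% of the variance. There the splicing kinase gene Clk1 had levels of 11.70, 12.11 and 12.02, against 8.28 to 10.66 on the other 7 arrays. WT 4 lay between them and the remaining arrays on this component, with the next highest Clk1 level (10.66). KO 1 led the second component (24.8% of the variance), with the liver and medulla values given below. Crem itself lay between 6.84 and 7.97 in KO and between 7.23 and 8.14 in WT. The stretch of transcript that its probe reads is not known here, so these levels do not check the labels.

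Ucp1, Cidea, Elovl3 and Adipoq varied most among the members. Ucp1, the uncoupling protein that makes brown fat produce heat, had levels of 12.16, 7.29, 12.64, 6.66 and 7.33 on KO arrays 1 to 5, against 11.74, 8.06, 10.54, 6.18 and 9.17 on WT arrays 1 to 5. High and low arrays occurred in both genotypes and the groups overlapped, with a difference of 6.45 (87.7-fold) between the highest array, KO 3, and the lowest, WT 4. Its SD over the 10 arrays was 2.42, which ranked 3 among all 19661 genes, where the median gene had an SD of 0.26.

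Cidea, a lipid droplet protein most abundant in brown fat, had 12.86, 8.13, 13.36, 7.37 and 8.79 in KO, against 11.54, 8.12, 10.44, 7.30 and 10.47 in WT. The order of the arrays was close to that of Ucp1, with KO 3, KO 1 and WT 1 at the top and WT 4 at the bottom, and the SD ranked 9. Elovl3, which elongates very long chain fatty acids in brown fat, had 10.89, 5.00, 10.21, 5.16 and 5.48 in KO, against 9.04, 5.99, 7.16, 5.80 and 5.96 in WT. Only KO 1, KO 3, WT 1 and WT 3 exceeded 6 on the log2 scale, and the lowest 3 arrays were KO arrays. Its SD ranked 11.

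Cox7a1, a cytochrome c oxidase subunit of heart, muscle and brown fat, had 11.78, 8.36, 12.43, 9.05 and 8.33 in KO, against 10.88, 9.12, 9.49, 8.51 and 9.75 in WT. Again KO 3, KO 1 and WT 1 were the highest arrays, over a range of 4.10 (17.1-fold). Ppargc1a, the coactivator that drives mitochondrial biogenesis and is induced by cold, varied far less. It had 7.19, 6.22, 6.70, 6.38 and 5.88 in KO, against 6.32, 5.97, 6.15, 5.87 and 6.33 in WT, a range of 1.32 (2.50-fold) with an SD rank of 4776. These levels were low, between percentiles 19.5 and 43.3 of all genes on the same array. A small range at such levels does not show that the transcript itself varied little. Ppargc1a has a second probe with a lower mean level, on which KO 1 was again the highest array (5.84) and KO 4 the lowest (4.21), while KO 3 (4.53) lay below KO 2, KO 5, WT 2 and WT 3.

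**Figure D1:**
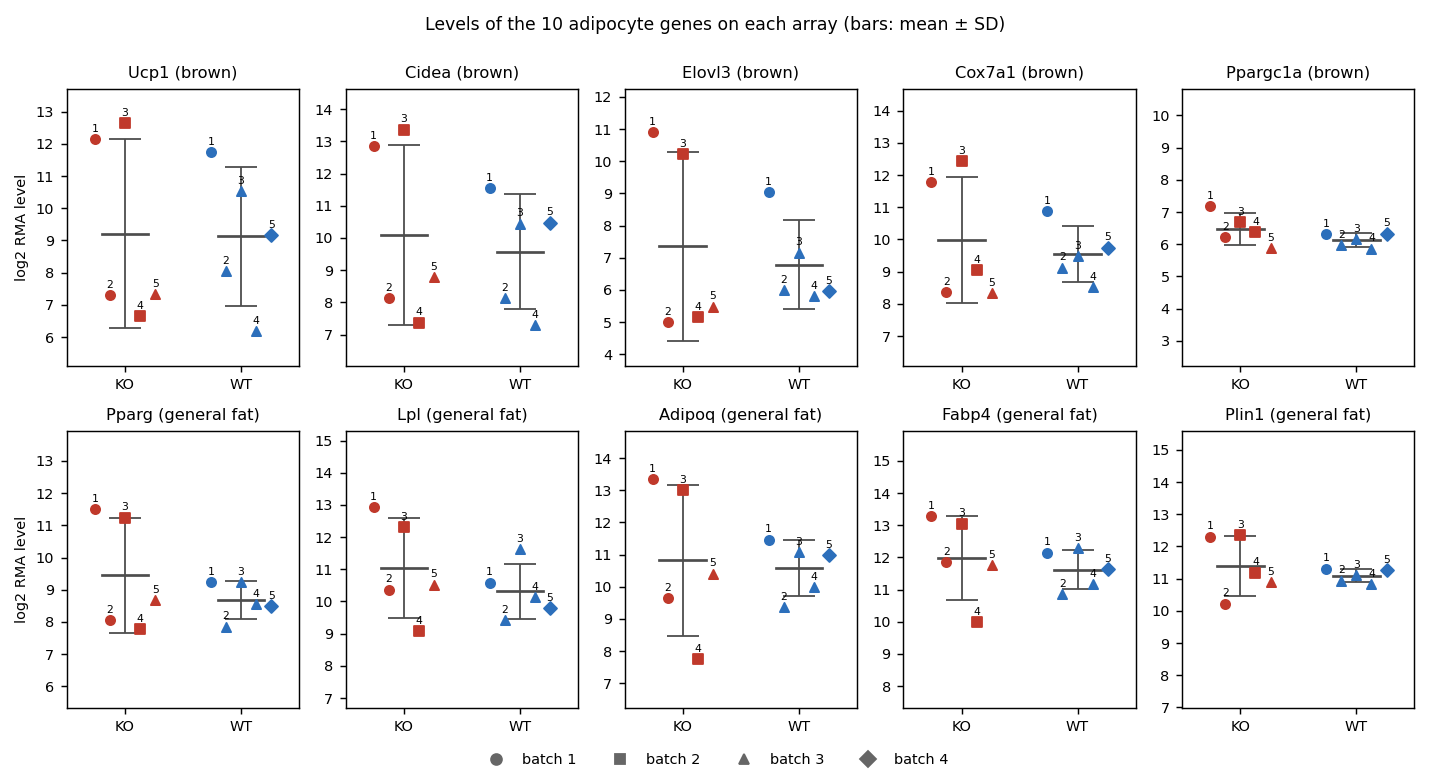
Level of each of the 10 genes on every array, in log2 RMA units, with KO left of WT. Numbers are replicate numbers, symbols are batches, bars are mean ± SD (n = 5), and every panel spans the same height on the log2 scale. KO 1 and KO 3 are the highest arrays in every panel, and Ucp1 runs between 6.18 and 12.64 while Ppargc1a runs between 5.87 and 7.19.

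The genes of fat cells in general were also high on KO 1 and KO 3, but WT 1 stood out less. Adipoq encodes the hormone adiponectin, which both kinds of fat cell secrete. It had 13.34, 9.65, 13.001, 7.76 and 10.41 in KO, against 11.46, 9.37, 11.08, 9.98 and 10.98 in WT. Its lowest array was KO 4, and all 5 WT arrays lay between KO 4 and KO 3, so that the KO group spanned the WT group on both sides. The range was 5.58 (47.9-fold) and the SD ranked 68.

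Pparg, the nuclear receptor needed to form any fat cell, had 11.51, 8.06, 11.24, 7.77 and 8.68 in KO, against 9.23, 7.86, 9.24, 8.56 and 8.50 in WT. KO 1 and KO 3 lay apart from the other 8 arrays, which stayed between 7.77 and 9.24. Lpl, the lipoprotein lipase that frees fatty acids from circulating triglyceride, had 12.94, 10.37, 12.30, 9.07 and 10.52 in KO, against 10.59, 9.43, 11.63, 10.14 and 9.79 in WT. Here WT 3 and not WT 1 was the highest WT array.

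Fabp4, the fatty acid carrier of fat cell cytoplasm, had 13.29, 11.85, 13.05, 9.99 and 11.76 in KO, against 12.15, 10.87, 12.29, 11.16 and 11.63 in WT. It was lowest on KO 4, as were Pparg, Lpl and Adipoq. Plin1, the perilipin that coats the droplet and gates its breakdown, varied least of these 5 genes. It had 12.30, 10.23, 12.36, 11.19 and 10.89 in KO, against 11.31, 10.94, 11.12, 10.84 and 11.25 in WT, and its lowest array was KO 2.

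For all 10 members the highest 2 arrays were KO 1 and KO 3, an order that 1707 of 19661 genes (8.68%) shared. Because the members were picked for this kind of variation, the count of 10 is a description of them. In whole tissue, fewer fat cells and less fat cell RNA per cell cannot be told apart.

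The brown and general fat members did not move in a fixed ratio. Each gene was centred on its mean over the 10 arrays, and the 5 brown genes and the 5 general genes were averaged per array. The brown mean was 2.54, -1.43, 2.64, -1.51 and -1.27 on KO arrays 1 to 5, against 1.47, -0.98, 0.33, -1.70 and -0.09 on the WT arrays. The general fat mean was 1.98, -0.67, 1.69, -1.54 and -0.24 on the KO arrays, against 0.25, -1.005, 0.37, -0.56 and -0.27 on the WT arrays. Among these members, WT 1 thus came next to KO 1 and KO 3 in brown genes. Its general fat members were close to the mean. KO 2, KO 5 and WT 4 were lower in the brown than in the general fat members. The lists of other fat genes given below did not repeat this on WT 1. Their centred means there were 0.16 for brown and 0.27 for general fat genes.

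The brown minus general difference was 0.57, -0.76, 0.94, 0.04 and -1.02 on the KO arrays, against 1.22, 0.03, -0.05, -1.14 and 0.17 on the WT arrays. Both groups held positive and negative values and overlapped fully. The highest array was WT 1 and the lowest was WT 4, a range of 2.36. Brown genes had larger ranges than general ones, and with each gene divided by its own SD before averaging the range was 1.09 in units of SD. WT 1 was then at 0.52, just below KO 4 at 0.53, and KO 3 was at -0.01.

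WT 1 and WT 3, the 2 highest WT arrays in Ucp1, were compared gene by gene. WT 1 exceeded WT 3 by 1.20 in Ucp1, 1.09 in Cidea, 1.88 in Elovl3 and 1.39 in Cox7a1. In Pparg (-0.02), Fabp4 (-0.14), Plin1 (0.20) and Ppargc1a (0.17) both arrays were within 0.20 of each other, and in Lpl WT 1 was lower by a difference of -1.04. Adipoq differed by 0.38. WT 3 is one of the arrays that stood apart across all genes, and the part of that in these differences was not tested. Other pairs of arrays did not divide in the same way. WT 5 exceeded WT 2 by 1.12 in Ucp1 and 2.35 in Cidea, but also by 1.61 in Adipoq and 0.76 in Fabp4. Elovl3 differed by -0.03 in that pair. KO 3 exceeded KO 1 by 0.48 in Ucp1, 0.51 in Cidea and 0.65 in Cox7a1. It was lower in Elovl3 (-0.68), as in Adipoq (-0.34) and Lpl (-0.64).

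**Figure D2:**
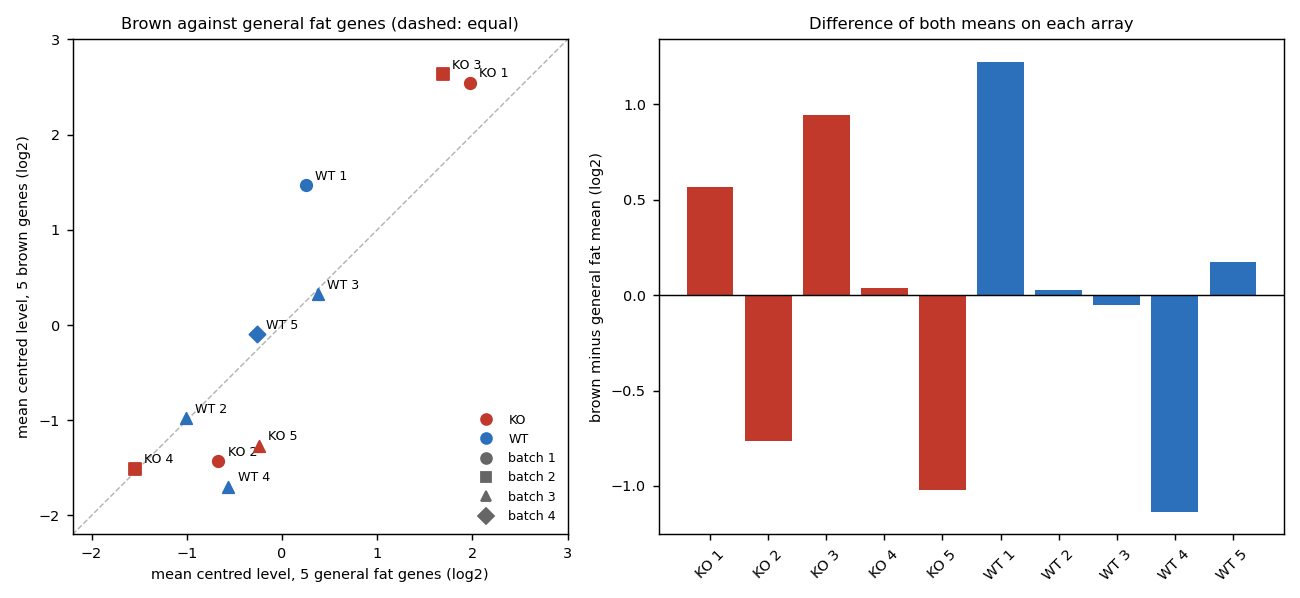
Left, mean centred log2 level of the 5 brown genes against that of the 5 general fat genes, one point per array, with colours for genotype and symbols for batch. Right, the brown minus general difference per array, with KO left of WT; WT 1 is highest (1.22) and WT 4 lowest (-1.14).

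Between the genotypes, the difference of every member was within the spread between mice. By limma over all 25664 probes, 0 of the 10 members passed an adjusted p of 0.05 (each had an adjusted p of 0.999), beside 0 (0%) of all probes. At an unadjusted p under 0.05, 0 of 10 members passed, beside 878 probes (3.42%). The lowest unadjusted p among the members was 0.147 by limma, for Ppargc1a. KO and WT levels overlapped for all 10 members, whereas they did not overlap for 0.717% of all genes.

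Ucp1 averaged 9.22 ± 2.92 (SD, n = 5) in KO mice and 9.14 ± 2.16 (SD, n = 5) in WT mice, a difference of 0.08 (SE 1.43, 95% interval -3.08 to 3.24). That interval is wide on both sides of 0, and the arrays could not tell a large difference in Ucp1 from none in either direction. Adipoq averaged 10.83 ± 2.35 in KO and 10.58 ± 0.87 in WT, a difference of 0.25 (SE 0.98, 95% interval -1.92 to 2.43). Pparg had the largest difference, 0.77 (SE 0.74, 95% interval -0.87 to 2.41), from 9.45 ± 1.79 in KO and 8.68 ± 0.58 in WT. Ppargc1a, whose levels were low, had the smallest SE of the members. It averaged 6.47 ± 0.50 in KO and 6.13 ± 0.21 in WT, a difference of 0.35 (SE 0.22, 95% interval -0.14 to 0.84).

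The other differences were 0.53 for Cidea, 0.56 for Elovl3, 0.44 for Cox7a1, 0.73 for Lpl, 0.37 for Fabp4 and 0.30 for Plin1, each smaller than 2 of its SEs. All 10 were thus above 0, while the median over all genes was -0.01. Without KO 1 and KO 3, 9 of the 10 were below 0, at -2.04 for Ucp1, -1.48 for Cidea, -1.57 for Elovl3, -1.31 for Adipoq and -0.51 for Pparg, and Ppargc1a was at 0.03. Without KO 2, KO 5 and WT 3, the arrays that stood apart, Ucp1 was at 1.70, Elovl3 at 2.06 and Pparg at 1.64, and no probe passed in either case.

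The estimates also depended on how batch was handled, although each batch of several arrays held both high and low levels of Ucp1. Within batch 1 (2 KO arrays, 1 WT array) the difference was -2.02 (SE 2.45) for Ucp1, -1.04 for Cidea, -1.09 for Elovl3 and -0.80 for Cox7a1, against 0.56 for Pparg, 1.07 for Lpl, 0.03 for Adipoq and 0.42 for Fabp4. Within batch 3 (1 KO array, 3 WT arrays) it was -0.93 (SE 1.62) for Ucp1, 0.17 for Cidea, -0.84 for Elovl3 and -0.71 for Cox7a1, against 0.13 for Pparg and 0.12 for Lpl. With batch as a fixed block, Ucp1 was at -1.44 (SE 1.94) and Lpl at 0.57 (SE 1.04), and no probe passed an adjusted p of 0.05 by limma in any of these fits. For the brown genes other than Ppargc1a the sign was thus negative in batch 1 and positive over all 10 arrays. In either batch, 1 genotype was a single array.

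**Figure D3:**
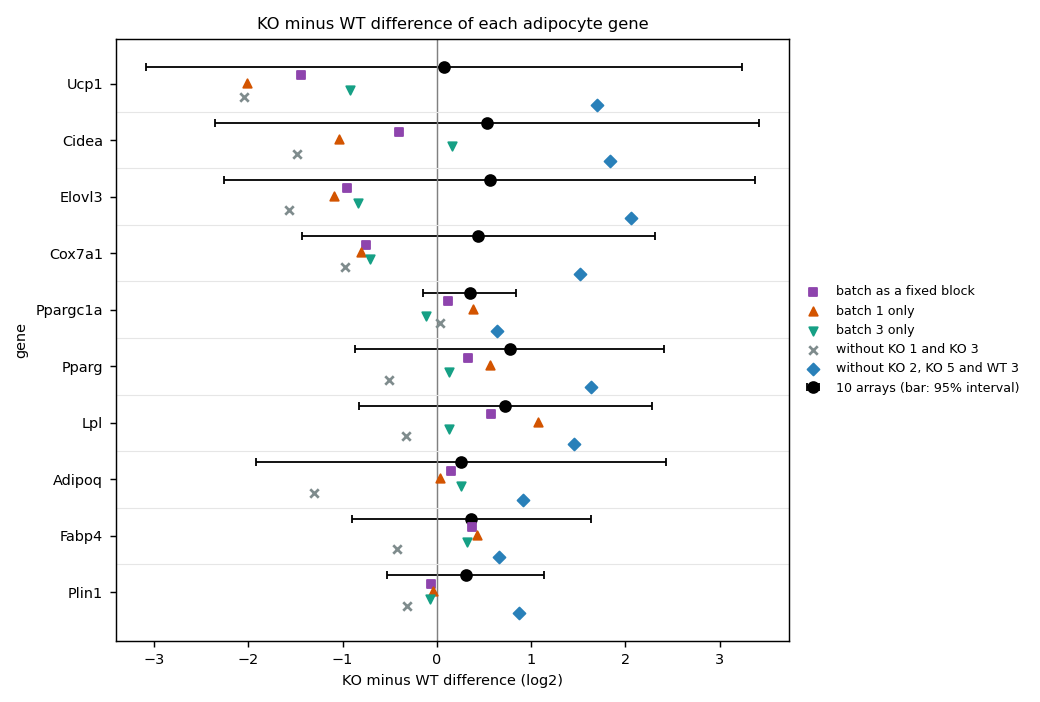
KO minus WT difference of each member on the log2 scale, over 10 arrays with its 95% interval (black) and under 5 other choices of arrays or batch handling (coloured symbols). Every interval includes 0, and for Ucp1 the values run between -2.04 and 1.70.

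Other genes of fat cells were taken from lists of known markers. Of 29 other general fat genes 27 were measured, 0 passed the test, and their median difference was 0.41, with all 27 above 0. KO 1 and KO 3 were the highest 2 arrays for 26 of the 27, and 23 of them were among the 1000 genes with the largest SD (5.09% of all genes). Cidec, which fuses lipid droplets in white fat, had 12.92, 8.44, 12.68, 8.17 and 9.01 in KO, against 11.03, 9.002, 10.11, 9.39 and 9.51 in WT. Adig, the adipogenin gene, had 11.61, 7.11, 11.96, 6.92 and 7.58 in KO, against 9.28, 7.44, 8.49, 7.14 and 8.45 in WT. Both were highest on KO 1 and KO 3 and lowest on KO 4, the lowest array of Pparg, Lpl, Adipoq and Fabp4 but not of the other members. Acly, which makes acetyl-CoA for fatty acid synthesis in many cell types, varied little, with an SD of 0.19.

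Of 22 other brown fat genes 18 were measured, with 0 passing the test, a median difference of 0.22 and 15 above 0. Cox8b, a cytochrome c oxidase subunit of muscle and brown fat, had 13.05, 10.25, 13.47, 11.32 and 9.78 in KO, against 12.27, 10.71, 11.24, 9.95 and 11.004 in WT. WT 1 came next after KO 3 and KO 1, as for Ucp1 but also for general fat genes such as Cidec and Adig. Slc27a2, a fatty acid transporter that is also abundant in liver, had 11.50 on KO 1 and 8.68 on KO 3, and 5.75 to 6.56 on the other KO arrays, against 5.92 to 7.63 in WT. Lhx8 and Bmp8b, both used as brown fat markers, had an SD of at most 0.15 over the 10 arrays. Their levels were low, at 5.98 to 6.47 for Lhx8 and 6.69 to 7.06 for Bmp8b. The median over all probes was 7.17 to 7.25 on the arrays. At such low levels a flat pattern cannot show whether a gene moved with Ucp1. The highest 2 arrays were KO 1 and KO 3 for 11 of the 18.

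White fat genes were measured for all 10 of the list, with 0 passing the test, a median difference of 0.53 and 9 above 0. Lep, which encodes leptin, had 11.26, 5.67, 10.38, 5.80 and 6.07 in KO, against 7.05, 6.12, 7.24, 6.45 and 6.84 in WT. Leptin was thus high on KO 1 and KO 3 alone, and on WT 1, high in the brown members, it was no higher than on WT 3. Retn, which encodes resistin, had 13.24, 8.80, 12.95, 8.17 and 10.27 in KO, against 11.03, 8.83, 10.57, 9.52 and 10.34 in WT. Hoxc8, a position gene used as a white fat marker, had a difference of 0.54 (SE 0.21, limma unadjusted p = 0.0245, adjusted p = 0.999), and Npr3, the clearance receptor for natriuretic peptides, one of 0.87 (SE 0.39, limma unadjusted p = 0.0497, adjusted p = 0.999). Hoxc8 and Npr3 were the 2 genes with a limma unadjusted p under 0.05 among the 27 other general, 18 other brown, 10 white and 8 beige fat genes measured. Of all probes, 3.42% had such a p. The highest arrays of Npr3 were KO 1, KO 5, KO 2 and WT 3. Without KO 2, KO 5 and WT 3, the arrays that stood apart, its difference was 0.93.

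Of 9 beige fat genes 8 were measured, with 0 passing, a median difference of -0.05 and 3 above 0. Slc36a2, an amino acid transporter, was the most variable of them, at 11.96, 7.80, 11.87, 7.30 and 8.59 in KO, against 9.95, 7.98, 9.55, 7.83 and 9.41 in WT. Cited1 had another order, and its highest arrays were WT 2 (10.98) and KO 4 (10.57). In 3 of the 8 (Slc36a2, P2rx5 and Hoxc9) the highest 2 arrays were KO 1 and KO 3.

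**Figure D4:**
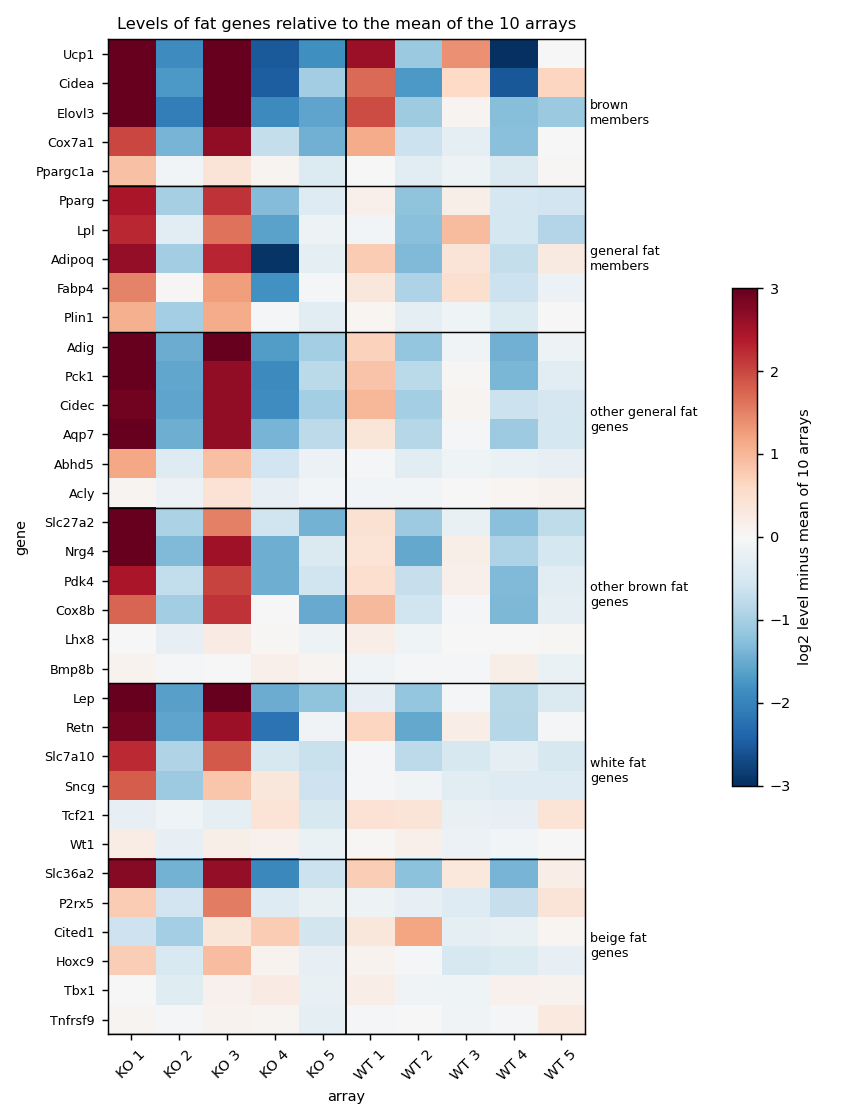
Log2 level minus the mean of the 10 arrays for the members and for the most and least variable genes of 4 other fat lists, with KO arrays left of WT arrays; colours saturate at 3 and -3. On KO 1 and KO 3 the most variable gene of every list is red. WT 1 is reddest in Ucp1, Cidea and Elovl3 and paler red in others such as Cidec, Adig and Cox8b. Genes such as Acly, Lhx8 and Wt1 are near white throughout.

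The pathway that drives brown fat was measured in part. Of 12 genes of beta-adrenergic and cAMP signalling 8 were measured, with 0 passing, a median difference of -0.03 and 4 above 0. Pde3b, the cAMP phosphodiesterase through which insulin restrains lipolysis, was the most variable of them, with 10.07, 7.27, 8.89, 6.11 and 7.54 in KO, against 7.50, 6.37, 8.14, 6.88 and 6.97 in WT. Like Lpl it was higher on WT 3 than on WT 1.

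Of 14 genes of fatty acid oxidation 13 were measured, with 0 passing, a median of 0.14 and KO 1 and KO 3 on top in 9. Cpt2, which completes the transfer of fatty acids into mitochondria, had 11.14, 9.55, 11.38, 10.18 and 9.52 in KO, against 10.42, 10.22, 9.53, 9.81 and 10.42 in WT. Cpt1a, the liver form of the first step, ran the other way and was lowest on KO 1, with a difference of -0.46 (SE 0.17, limma unadjusted p = 0.0207, adjusted p = 0.999). Of 13 citric acid cycle genes 11 were measured, with 0 passing, a median of 0.12 and KO 1 and KO 3 on top in 10. Cs, citrate synthase, had 12.25, 10.70, 12.47, 11.09 and 10.84 in KO, against 11.57, 11.14, 11.04, 11.05 and 11.61 in WT. These mitochondrial genes thus followed the fat genes on KO 1 and KO 3 over a smaller span, the largest SD being 0.71 in oxidation and 0.59 in the cycle.

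Genes of fat cell precursors did not follow. Of 7 genes 6 were measured, with 0 passing and a median difference of -0.06, and KO 1 and KO 3 were the top arrays for 1. Pdgfra, a receptor of connective tissue and fat precursors, was lowest on KO 1 and KO 3, with a difference of -0.28 (SE 0.10, limma unadjusted p = 0.0212, adjusted p = 0.999). Dlk1, a precursor marker that the adrenal gland also expresses, was 8.61 on KO 1 and 11.05 to 12.58 on the other KO arrays, against 11.52 to 12.32 in WT.

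Close relatives of the members were compared with them, since arrays may cross-detect related transcripts, which was not tested. Of 29 paralogs 25 were measured, 14 differences were above 0, and 0 passed the test. By limma 3 of the 25 had an unadjusted p under 0.05, beside 3.42% of all probes. Ucp3, the muscle and brown fat relative of Ucp1, had 9.33, 6.99, 9.65, 7.30 and 7.03 in KO, against 7.47, 7.01, 7.61, 6.82 and 7.50 in WT. It was high on KO 1 and KO 3 but, unlike Ucp1, not on WT 1. Cideb, a relative of Cidea that liver expresses, was 9.92 on KO 1 and 7.01 to 7.38 on the other KO arrays, against 6.19 to 6.88 in WT. It was the 1 paralog whose groups did not overlap, beside 0.717% of all genes. Its difference was 1.13 (SE 0.49, limma unadjusted p = 0.0438, adjusted p = 0.999). KO 1, its highest array, was also the highest in liver markers (13.18). The other KO arrays, at 7.01 to 7.38, also lay above all WT arrays. The part of liver RNA in this difference was not tested.

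Elovl6, which elongates shorter fatty acids than Elovl3 does, had 11.03, 10.31, 11.52, 8.86 and 10.18 in KO, against 9.64, 8.74, 11.11, 9.45 and 9.14 in WT. Its WT order was that of Lpl at the top, with WT 3 far above WT 1. Cox7a2l, a relative of Cox7a1 expressed in most cells, stayed between 10.45 and 11.57 and did not share the Cox7a1 order. Ppargc1b was highest on KO 3 (8.08) and KO 1 (7.86), against at most 7.52 in WT. Pprc1, another coactivator of that family, had the smallest p of the paralogs, with 7.79, 7.64, 7.88, 7.85 and 7.67 in KO, against 8.25, 8.21, 7.81, 8.08 and 8.26 in WT, a difference of -0.36 (SE 0.11, limma unadjusted p = 0.00784, adjusted p = 0.999). The groups overlapped through WT 3 alone.

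The genes whose pattern over the 10 arrays was most like Ucp1, by Pearson's r and leaving out the members, were Thrsp (0.943), Slc36a2 (0.937), Gpd1 (0.936), Tmem45b (0.927), Pdk4 (0.926), Pck1 (0.925), Ces1d (0.925) and Orm1 (0.923). These points share arrays, batches and the arrays that stood apart, so the coefficients are a description over 10 arrays. Without KO 1 and KO 3, the 2 arrays farthest from the median of Ucp1, r remained at 0.96 for Pdk4 and 0.904 for Thrsp. Thrsp, a factor of fatty acid synthesis, had 13.64, 9.92, 13.68, 9.67 and 10.99 in KO, against 12.22, 10.23, 11.90, 10.23 and 11.40 in WT. Pdk4, the kinase that turns off glucose oxidation, had 11.29, 8.10, 10.88, 7.39 and 8.26 in KO, against 9.34, 8.16, 8.99, 7.51 and 8.54 in WT.

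Among the members themselves, r with Ucp1 was 0.973 for Cidea, 0.927 for Elovl3 and 0.924 for Cox7a1. It was 0.874 for Adipoq, 0.842 for Pparg, 0.83 for Fabp4, 0.796 for Plin1 and 0.785 for Lpl, and lowest, at 0.715, for Ppargc1a. Without KO 1 and KO 3 the coefficient of Lpl was 0.542, that of Plin1 0.526 and that of Ppargc1a 0.426. Over those 8 arrays Cidea (0.953) and Elovl3 (0.895) still followed Ucp1 most closely.

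Adipoq was most like Cdo1 (0.996), Car5b (0.989), Ces1d (0.981), Retn (0.977), Acaca (0.975), Tmem45b (0.972), Cyp2e1 (0.965) and Dgat2 (0.963). Cdo1, which starts cysteine breakdown, had 12.90, 9.47, 12.35, 7.61 and 10.15 in KO, against 10.93, 9.09, 10.82, 9.84 and 10.34 in WT. It ranked the 10 arrays exactly as Adipoq did (Spearman's rho 1.0). With Adipoq 74 genes had an r above 0.9, and with Ucp1 25 genes did. Least like Ucp1 was Mc4r (-0.927), whose levels spanned only 5.71 to 6.26, and least like Adipoq was A530021J07Rik (-0.906). Npr1, a natriuretic peptide receptor of the adrenal cortex, followed with -0.888, at 10.91, 11.60, 11.12, 11.93 and 11.59 in KO, against 11.67, 11.85, 11.46, 11.77 and 11.73 in WT.

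The brown minus general difference was most like Ftmt (0.946), which encodes mitochondrial ferritin. Of the next genes by likeness, Ss18l2 (0.916) and Pmm2 (0.913) had low levels on KO 2, KO 5, WT 3 and WT 4. Ftmt spanned only 6.13 to 6.77, with its lowest levels on KO 5 (6.13), KO 2 (6.21) and WT 4 (6.28). KO 2, KO 5 and WT 3 are the arrays that stood apart across all genes, and WT 4 came next on the first component. The part of these arrays in this likeness, and in the brown minus general difference, was not tested.

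Markers of other cell types were read beside the fat genes. Cortex markers, such as the steroid enzymes, were the lowest on KO 3 (mean level 12.23) and KO 1 (12.38) and lay between 12.70 and 12.93 on the other 8 arrays, so that the 2 arrays highest in fat genes were lowest in cortex. Medulla markers averaged 8.36 on KO 1 and 11.34 to 12.43 on the other KO arrays, against 11.66 to 12.47 in WT, with 7 of 8 measured. KO 3 (12.19) was thus as high in medulla as the WT arrays while being as rich in fat genes as KO 1. Liver markers, of which 7 of 8 were measured, averaged 13.18 on KO 1 and 9.01 on KO 3, and 6.38 to 7.48 on the other KO arrays, against 6.70 to 8.19 in WT.

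Skeletal muscle markers, whose tissue shares Ucp3, Cox7a1 and Cox8b with brown fat, lay between 6.42 and 6.82 in KO and between 6.41 and 6.77 in WT, with all 9 measured. Heart muscle markers, all 5 measured, lay between 6.84 and 7.17 in KO and between 6.76 and 7.26 in WT. Skeletal muscle markers were highest on KO 1 (6.82) and KO 3 (6.77) over a span of 0.41, and heart muscle markers were highest on WT 5 (7.26). Endothelial markers (7 of 7) lay between 10.11 and 10.29 in KO and between 10.18 and 10.56 in WT, and macrophage markers (7 of 7) between 8.21 and 9.51 in KO and between 8.67 and 9.52 in WT. Red cell markers (2 of 5 measured, Alas2 and Slc4a1) averaged 9.02 on KO 1 and 9.21 on KO 3 and 7.43 to 8.20 on the other KO arrays, against 7.65 to 8.06 in WT. Lymphocyte markers (5 of 6) averaged 6.46 on KO 1 and 6.45 on KO 3 and 5.76 to 6.17 on the other KO arrays, against 5.78 to 6.13 in WT. The means of both lists were thus highest on the same 2 arrays as the fat genes. Gene by gene, this held for 2 of 2 red cell markers but only 1 of 5 lymphocyte markers. Pancreas markers (4 of 5) spanned 0.29 and kidney markers (6 of 6) 0.24 over the 10 arrays. None of these lists had a gene past the adjusted threshold. The part of liver, medulla, cortex, red cell and lymphocyte RNA in the fat gene levels was not tested.

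**Figure D5:**
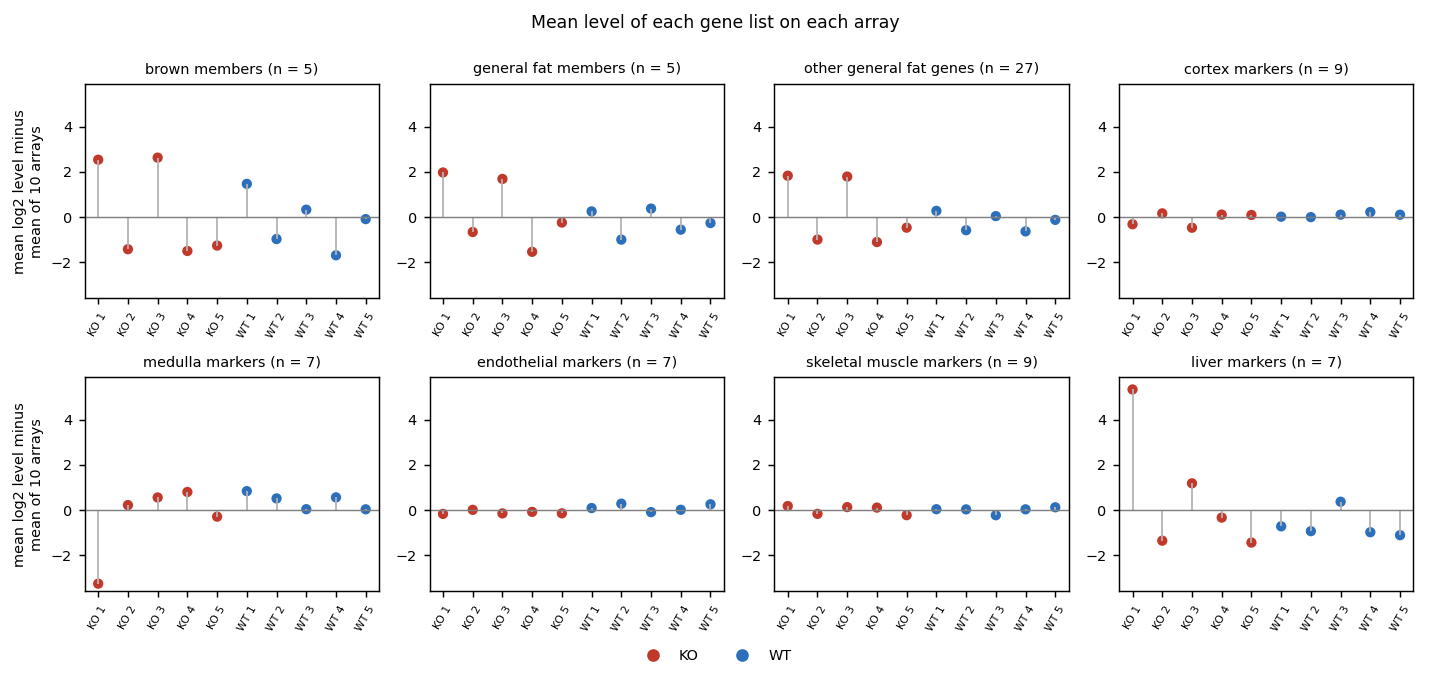
Mean log2 level of each list on each array minus its mean over the 10 arrays, with KO arrays left of WT arrays and the number of measured genes in each title. The fat lists are high on KO 1 and KO 3, cortex markers are lowest on the same 2 arrays, and KO 1 alone is low in medulla markers (8.36 before centring) and very high in liver markers (13.18).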

How the data were processed

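Whole adrenal RNA of 5 KO and 5 WT mice was measured on Affymetrix whole-transcript arrays. The deposited values are log2 levels per probe set. RMA, named in the submitters' processing notes, subtracts a modelled background, makes the arrays' distributions equal and combines the probes of a set. Its version is not stated, nor whether batches were adjusted for. Of 35557 probe sets, 9868 held no value and 25 were taken as controls, which left 25664 for testing. The platform annotation gives 1 symbol for 20777 of them, several for 232 and none for 4655, and a gene was read from its single-symbol probe with the highest mean (19661 genes). RMA gives no detection call, so no gene was called absent. Levels were set against those of other genes only where Ppargc1a, Lhx8 and Bmp8b were called low. Precision is limited by the number of arrays. The series' design text calls the arrays biological replicates.

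Genotypes were compared by limma 3.58.1 under R 4.3.3 (two-sided, genotype as the only term), with Benjamini-Hochberg adjustment over all 25664 probes at 0.05. The fit was tested on simulated data. Batch was added as a fixed term or as a random block (correlation 0.172), and batches 1 and 3 were fitted alone. Other alternatives were a median shift, repeated quantile normalisation, brighter probes alone, eBayes with trend and robust, arrayWeights, a gene's mean over all its probes, each array left out in turn, and KO 1 and KO 3 left out. Leaving out KO 2, KO 5 and WT 3 was added after the data were seen. Likeness was Pearson's r over 10 arrays, with no test.

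The members and gene lists were chosen with earlier results of these data known. Named by rule were the members, up to 4 genes of each list with the largest SD and up to 2 with the smallest, measured paralogs, and the 8 genes most like Ucp1, Adipoq and the brown minus general difference, with the 5 least like the first 2. Hoxc8, Npr3, Cpt1a, Clk1 and Crem were named for their values, their p or their use as a check. Upstream sequences came from a RefSeq table (GRCm38.p6) of windows from 250 bases before to 50 after the start, of which the 50 were not used. Gene coordinates on the arrays' own build were not used. Figures were drawn with matplotlib 3.10.9.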

Additional observations from a re-analysis of the deposited data

Results flagged for a closer look

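A single array lay far from the other 4 of its group in 6 of 142 groups examined, where chance alone would mark about 1 in 20. Medulla markers averaged 8.36 on KO 1, the lowest of the KO arrays. Liver markers averaged 8.19 on WT 3, the highest of the WT arrays, and skeletal muscle markers averaged 6.41 there, the lowest. Cideb was at 9.92 on KO 1, far above the other KO arrays. Hoxc8 was at 8.31 on WT 3, above all other WT arrays. Plin5, a droplet protein of tissues that burn fat, was at 10.03 on WT 2, where the brown members were low. None of the 10 members had such an array in either group.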

How the results depend on the processing

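No paired analysis was possible because the labels give KO and WT no shared replicate numbers. The number of probes past the adjusted threshold was 0 under every alternative, and 878 probes passed an unadjusted 0.05. That unadjusted count lay between 503 and 1462 when 1 array was left out and was 3126 without KO 2, KO 5 and WT 3, 1843 with batch as a fixed block and 1666 with arrayWeights, and within batches 1 and 3 it was 224 and 264. Under the alternatives 39 of the members' differences changed sign, 179 did not, and 0 changed a call.

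With batch as a fixed block the differences below 0 were -1.44 for Ucp1, -0.40 for Cidea, -0.96 for Elovl3, -0.76 for Cox7a1 and -0.0598 for Plin1, and as a random block -0.33 for Ucp1. Within batch 1 they were -2.02 for Ucp1, -1.04 for Cidea, -1.09 for Elovl3, -0.80 for Cox7a1 and -0.0463 for Plin1. Within batch 3 they were -0.93 for Ucp1, -0.84 for Elovl3, -0.71 for Cox7a1, -0.11 for Ppargc1a and -0.0717 for Plin1. Without KO 1 and KO 3 they were -2.04 for Ucp1, -1.48 for Cidea, -1.57 for Elovl3, -0.97 for Cox7a1, -0.51 for Pparg, -0.33 for Lpl, -1.31 for Adipoq, -0.42 for Fabp4 and -0.32 for Plin1. With 1 array left out, the differences ranged between -0.78 and 0.73 for Ucp1, -0.29 and 1.21 for Cidea, -0.32 and 1.147 for Elovl3, -0.17 and 0.85 for Cox7a1, and -0.37 and 1.02 for Adipoq, and the others stayed above 0. The cause of these changes of sign was not tested.

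The range of the brown minus general difference was 2.36, and 1.09 with each gene divided by its SD. Of the 8 genes most like Ucp1 by Pearson's r, 3 were among the 14 highest by Spearman's rho, a set enlarged by ties. For Adipoq 5 of the 8 were among the 8 highest by rho, and for the brown minus general difference 2 of the 8.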
